A study of Mus musculus with 4 samples.

Results

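Immediate-early genes are transcribed within minutes of a growth, stress or hormone signal from factors that are already present in the cell, and 10 of them were described here in the livers of mice fed a high-fat diet (HFD). They are Egr1, Fos, Fosb, Jun, Junb, Jund, Atf3, Ier2, Ier3 and Gadd45b, 10 of the 25655 genes in the deposited table, matched by gene symbol. The set was chosen by a measured value, the higher count of Egr1 in HFD-KO livers, and the other members were put beside it for their place in the same response. The HFD-KO and HFD-WT values of the members are therefore a description without a test. All 10 members had enough reads to pass edgeR's filter on low counts.

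The mice were males on a B6129S background, put on the HFD at 5 weeks of age for 12 weeks. HFD-WT mice were ADAR2+/+/GluR-B R/R and HFD-KO mice were ADAR2-/-/GluR-B R/R, so both groups carried the edited GluR-B allele and the same diet. No chow-fed library was analysed here. The labels name no driver that would restrict the ADAR2 deletion to a cell type. Each group had 2 liver libraries, and the sources used here do not say whether a library came from 1 mouse or from several, although a legend of the study counts more mice per group than there are libraries, or at what hour and after what fast the livers were taken. The spread between libraries may thus be technical. Total counts ran from 24480798 to 28691330, so that 3 reads, taken as the lowest detectable level for counting error only, corresponded to 0.104 to 0.126 CPM, the read count scaled to library size. Adarb1, the gene for ADAR2, had 15.7 and 19.8 CPM in the HFD-WT libraries and 6.23 and 9.54 CPM in the HFD-KO libraries, and reads per gene do not show which exons they cover.

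Signals that reach these genes run through the MAP kinases to serum response factor with its ELK partners, and through cAMP to CREB. Egr1 encodes a zinc-finger transcription factor. The Fos and Jun proteins pair through leucine zippers into the AP-1 transcription factor, in which Jun proteins can pair with each other while Fos proteins need a Jun partner. Atf3 encodes a leucine-zipper factor of the ATF family that is induced by stress. Ier2 and Ier3 encode small proteins induced early after a stimulus, and Gadd45b encodes a stress sensor that acts on MAP kinase signaling. In liver, Fos, Jun and Egr1 are known for their early induction after partial hepatectomy. Bulk liver counts cannot tell fewer cells of a type from less RNA per cell.

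The sequence before the start site was read for the members for which the RefSeq table of GRCm38.p6 gave one, as 250 bases upstream of the start. It held 8 of the 10 members, and Egr1 and Ier2 were not among them. The core TGACG of the cAMP response element, searched on both strands, occurred in 4 of these 8 windows, those of Fos, Fosb, Junb and Atf3, against 17.8% of 32851 RefSeq promoters of equal length. The TATA box TATAAA occurred in Fos and Gadd45b, which is 2 of 8 against 12.4% of promoters. The 5 windows with a match are printed below because they show which members carry the CREB-type core and which the TATA box. Capitals mark the matches, and the match in Atf3 lies on the minus strand and reads CGTCA. All sequences run 5′ to 3′ along the gene, on GRCm38.p6.
Fos: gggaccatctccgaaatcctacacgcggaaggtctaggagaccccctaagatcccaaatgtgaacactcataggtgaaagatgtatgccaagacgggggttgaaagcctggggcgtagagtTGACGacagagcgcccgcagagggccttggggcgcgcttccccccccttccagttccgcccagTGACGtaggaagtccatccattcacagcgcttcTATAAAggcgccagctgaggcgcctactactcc
Fosb: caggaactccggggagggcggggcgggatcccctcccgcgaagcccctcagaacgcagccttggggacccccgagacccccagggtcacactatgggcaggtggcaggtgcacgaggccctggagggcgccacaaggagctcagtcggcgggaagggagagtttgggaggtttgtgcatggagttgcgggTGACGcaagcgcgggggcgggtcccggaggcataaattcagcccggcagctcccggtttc
Junb: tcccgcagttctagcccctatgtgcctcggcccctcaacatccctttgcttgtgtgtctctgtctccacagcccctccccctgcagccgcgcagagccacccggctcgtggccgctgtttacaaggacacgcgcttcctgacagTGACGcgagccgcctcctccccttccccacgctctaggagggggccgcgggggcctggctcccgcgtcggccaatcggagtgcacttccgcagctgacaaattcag
Atf3: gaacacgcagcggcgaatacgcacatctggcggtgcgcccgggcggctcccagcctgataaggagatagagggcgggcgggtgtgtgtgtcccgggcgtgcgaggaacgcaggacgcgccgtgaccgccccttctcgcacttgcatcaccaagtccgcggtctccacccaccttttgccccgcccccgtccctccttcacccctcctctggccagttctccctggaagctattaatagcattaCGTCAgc
Gadd45b: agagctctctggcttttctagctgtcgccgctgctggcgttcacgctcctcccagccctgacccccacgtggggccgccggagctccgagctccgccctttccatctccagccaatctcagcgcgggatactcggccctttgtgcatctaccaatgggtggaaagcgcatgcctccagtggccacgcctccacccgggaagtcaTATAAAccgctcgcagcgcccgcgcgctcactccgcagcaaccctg
These windows lie at chr12:85473640-85473889 on the plus strand for Fos, chr7:19310046-19310295 on the minus strand for Fosb, chr8:84978749-84978998 on the minus strand for Junb, chr1:191183334-191183583 on the minus strand for Atf3, and chr10:80929841-80930090 on the plus strand for Gadd45b. In Fos, TGACG began at -129 and at -66 and the TATA box at -33, counted from the start site. TGACG began at -60 in Fosb, at -106 in Junb and at -7 in Atf3, and the TATA box of Gadd45b began at -46. The full cAMP response element TGACGTCA, which contains the core, was in 0 of the 8 windows and in 1.55% of promoters. The AP-1 site TGANTCA was in 0 of 8 and in 6.75% of promoters, the EGR1 site GCGTGGGCG in 0 of 8 and in 0.536%, and the CArG box bound by serum response factor in 0 of 8 and in 1.47%. A match is a description of letters in this window and not of a bound site. An absent match says nothing of sequence outside these 250 bases. A motif found in few promoters would seldom occur in 8 windows.

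Egr1 (ENSMUSG00000038418, chromosome 18 from 34992876 to 34998037 on GRCm39, plus strand) had 490 and 501 reads in the HFD-WT libraries and 788 and 795 reads in the HFD-KO libraries. These counts correspond to 16.9 and 18.2 CPM in HFD-WT and to 29.9 and 33.3 CPM in HFD-KO livers, where CPM were computed on TMM-normalized library sizes. Both HFD-KO libraries were above both HFD-WT libraries. The means were 17.6 ± 0.91 CPM (SD, n = 2) and 31.6 ± 2.4 CPM, a ratio of 1.80, and the fitted log2 fold change was 0.85 with a standard error of 0.09. The 95% Poisson intervals, which cover counting error only, reached up to 19.9 CPM in HFD-WT and down to 27.9 CPM in HFD-KO. With each library left out in turn the log2 fold change of Egr1 ran from 0.77 to 0.92.

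Of the Fos genes, Fos stood at similar levels within each group and higher in HFD-KO, and Fosb did not separate the groups. Fos (ENSMUSG00000021250, chromosome 12 from 85520664 to 85524047) had 4.87 and 5.52 CPM in HFD-WT and 8.24 and 8.41 CPM in HFD-KO livers. The log2 fold change of Fos was 0.68 with a standard error of 0.15, and the groups did not overlap. Fosb (ENSMUSG00000003545, chromosome 7 from 19036621 to 19043976) was near the bottom of the set, with 0.690 and 1.74 CPM in HFD-WT and 1.78 and 0.586 CPM in HFD-KO livers. These values came from 20, 48, 47 and 14 reads. Replicates of Fosb differed more than the genotypes, since the 95% Poisson interval of HFD-KO 1 was 1.31 to 2.37 CPM and that of HFD-KO 2 was 0.320 to 0.983 CPM. Its log2 fold change of -0.02 had a standard error of 0.60, and it ran from -1.04 to 0.79 with each library left out in turn.

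For all 3 Jun genes the HFD-KO libraries lay above the HFD-WT libraries, with unequal spread. Jun (ENSMUSG00000052684, chromosome 4 from 94937271 to 94940459) had 76.0 and 76.9 CPM in HFD-WT and 112 and 86.4 CPM in HFD-KO livers. Its log2 fold change was 0.38 with a standard error of 0.12, and without HFD-KO 1 it was 0.18. Junb (ENSMUSG00000052837, chromosome 8 from 85701113 to 85705347) had 30.0 and 28.9 CPM in HFD-WT and 39.0 and 48.8 CPM in HFD-KO livers. The log2 fold change of Junb was 0.57 with a standard error of 0.12, and it was 0.40 without HFD-KO 2. HFD-KO 1 was thus the higher library for Jun and HFD-KO 2 for Junb. Junb overlaps Prdx2, a peroxiredoxin gene on the opposite strand, and the use of strand in counting is not stated in the sources, so reads of the pair may not be separated. Prdx2 had 2327 to 3413 reads per library. Jund (ENSMUSG00000071076, chromosome 8 from 71151599 to 71153265), the member known for steady rather than induced expression, had 102 and 103 CPM in HFD-WT and 114 and 119 CPM in HFD-KO livers. The log2 fold change of Jund was 0.18 with a standard error of 0.08.

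Gadd45b (ENSMUSG00000015312, chromosome 10 from 80765907 to 80768038) had the largest ratio in the set. It had 3.97 and 3.74 CPM in HFD-WT and 10.2 and 7.07 CPM in HFD-KO livers, from 115, 103, 269 and 169 reads. The means were 3.86 ± 0.16 CPM (SD, n = 2) and 8.64 ± 2.2 CPM, a ratio of 2.24. Its log2 fold change was 1.17 with a standard error of 0.21, and it was 0.87 without HFD-KO 1. The HFD-KO libraries differed between themselves, but both lay above both HFD-WT libraries. Adarb1, the deleted gene, lies on the same chromosome 10, from 77126560 to 77254104, and the mice were on a B6129S background. Whether sequence inherited along with the deleted allele plays a part in the Gadd45b values was not tested.

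The stress factor Atf3 and the genes Ier2 and Ier3 had overlapping groups. Atf3 (ENSMUSG00000026628, chromosome 1 from 190902493 to 190950236) had 6.66 and 9.78 CPM in HFD-WT and 6.30 and 10.8 CPM in HFD-KO livers, so each group held 1 low and 1 high library. Its log2 fold change was 0.06 with a standard error of 0.28. Ier2 (ENSMUSG00000053560, chromosome 8 from 85387960 to 85389483) had 20.4 and 16.4 CPM in HFD-WT and 19.2 and 24.3 CPM in HFD-KO livers. The log2 fold change of Ier2 was 0.24 with a standard error of 0.15. Ier3 (ENSMUSG00000003541, chromosome 17 from 36132576 to 36133815) had 1.07 and 1.24 CPM in HFD-WT and 0.646 and 1.80 CPM in HFD-KO livers, from only 31, 34, 17 and 43 reads. Its log2 fold change of 0.07 had a standard error of 0.49. HFD-KO 2 was the highest library for all 3 genes, and HFD-KO 1 was the lowest for Atf3 and Ier3.

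**Figure D1:**
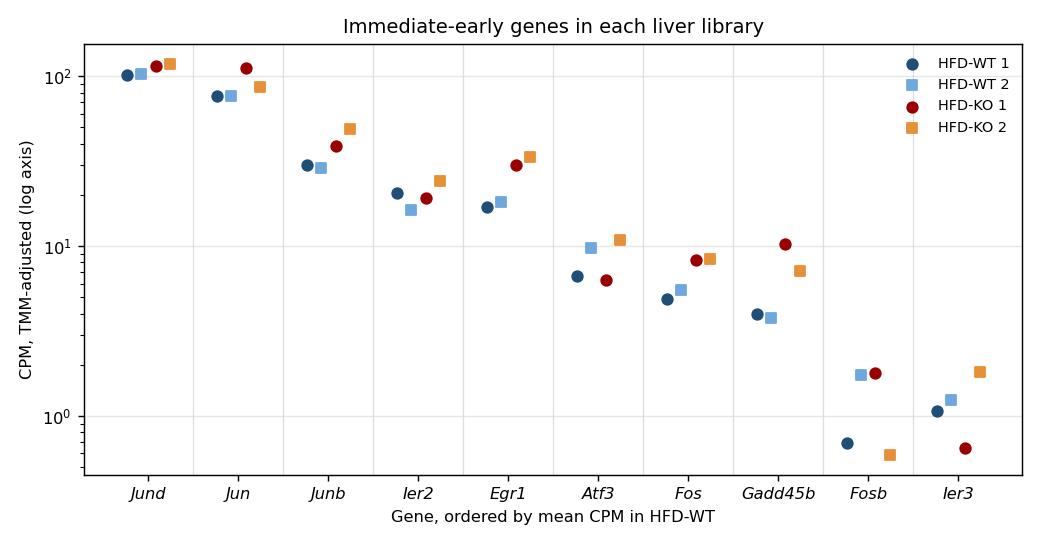
TMM-normalized CPM of each of the 10 immediate-early genes in every liver library, on a log axis, with 1 point per library, circles and squares in blue for HFD-WT and in red and orange for HFD-KO. Egr1, Fos, Jun, Junb, Jund and Gadd45b have both HFD-KO points above both HFD-WT points, while Fosb, Atf3, Ier2 and Ier3 overlap.

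Counted together, 6 of the 10 members had both HFD-KO libraries above both HFD-WT libraries and 0 had both below. Over the 12967 genes tested, 20.5% lay wholly above and 20.3% wholly below. At an unadjusted p under 0.05 in edgeR's quasi-likelihood test, 6 members were higher and 0 lower, against 4.25% and 4.73% of all genes. Scaling by library size alone gave a split over all genes of 345 higher and 894 lower, against 551 and 613 with TMM. An adjusted p under 0.05 was reached by 0.0771% of all genes, with 0.054%, that is 7 genes, higher and 0.0231%, that is 3 genes, lower, and Egr1 was the 1 member among them. Egr1 did not reach it when scaled by library size alone, without HFD-WT 1 or without HFD-WT 2, where 0 members did, while Egr1, Junb and Gadd45b reached it with DESeq2's Wald test and with no filter on low counts. The 7 genes became 0 without HFD-WT 2, 376 without HFD-KO 1 and 226 without HFD-KO 2, and the 551 and 613 genes became 255 and 207 without HFD-WT 2 and 1095 and 1078 without HFD-KO 1. Over all genes, DESeq2's Wald test called 60 higher and 60 lower at an adjusted p under 0.05. With no filter on low counts edgeR called 81 higher and 81 lower at that level. Nothing is read from these counts for the members, because the same contrast chose the set. The median log2 fold change of the members was 0.31, beside 0.01 over all genes tested, and it was 0.52 without HFD-KO 1.

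**Figure D2:**
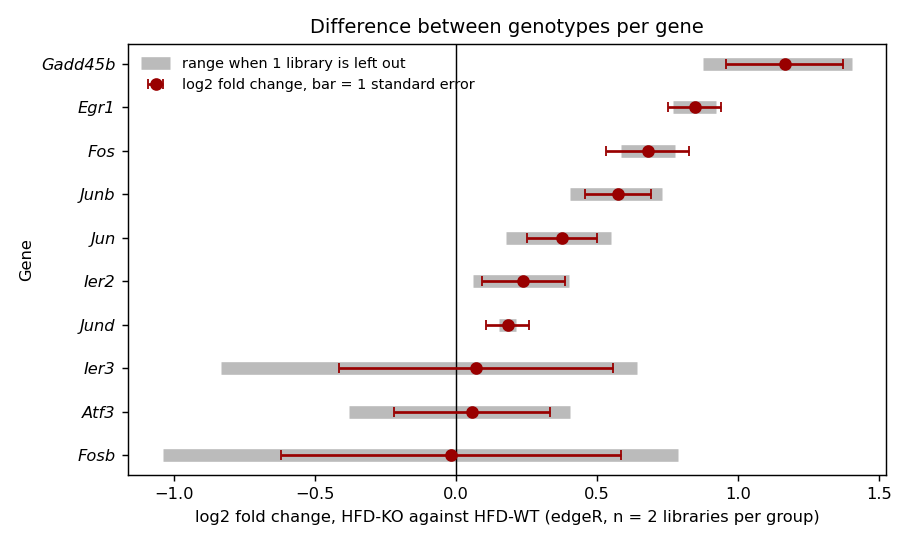
Fitted log2 fold change of HFD-KO over HFD-WT for each of the 10 genes, with red bars for 1 standard error and grey bars for the range of values over the fits that leave out 1 library. Gadd45b and Egr1 lie farthest from 0 at 1.17 and 0.85, and Fosb and Ier3 have the widest bars at 0.60 and 0.49.

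The rule compared the groups and did not name the spread within them, although a small spread helps a gene to be called. The median absolute log2 difference between the 2 libraries of a group was 0.11 in HFD-WT and 0.14 in HFD-KO over 11759 genes with a mean of at least 1 CPM. Egr1 differed by 0.11 and 0.15 on this scale and Jund by 0.03 and 0.06. Fosb differed by 1.34 in HFD-WT and by 1.61 in HFD-KO, and Ier3 by 1.48 in HFD-KO. Atf3, which had enough reads for a small counting error, still differed by 0.55 and 0.78. The 90th percentile over all genes was 0.36 in HFD-WT and 0.47 in HFD-KO, so that Atf3 lay beyond it in both groups and Gadd45b, at 0.53, in HFD-KO. The fitted biological coefficient of variation was 0.0766 for Egr1, at the 15.7th percentile of all genes, and 0.394 for Fosb, at the 99.3rd percentile.

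**Figure D3:**
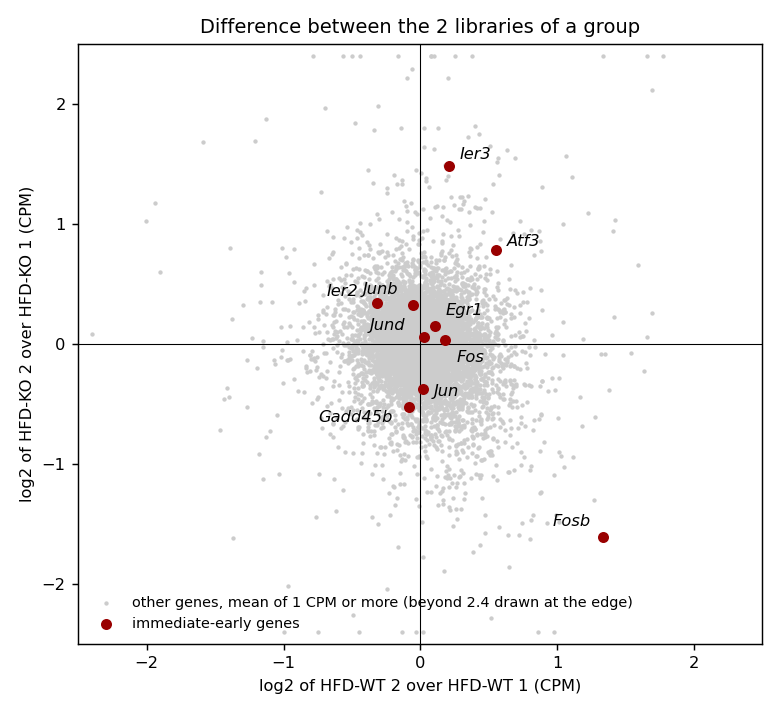
Log2 difference between replicate 2 and replicate 1 in HFD-WT livers (x axis) and in HFD-KO livers (y axis) for genes with a mean of at least 1 CPM in grey and for the 10 immediate-early genes in red, with differences beyond 2.4 drawn at the edge. Egr1 and Jund lie near the centre, Fosb lies at the lower right, and Atf3 lies at the upper right with higher values in replicate 2 of both groups.

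Levels of different genes were compared as the authors' RPKM, which divide by exon length. Jund had the highest level, with 56.9 and 58.8 RPKM in HFD-WT and 62.6 and 64.2 RPKM in HFD-KO livers. Jun followed with 22.2 and 22.9 RPKM in HFD-WT and 32.1 and 24.4 RPKM in HFD-KO, then Junb with 15.5, 15.1, 19.7 and 24.3 RPKM and Ier2 with 12.5, 10.2, 11.5 and 14.4 RPKM in the order of the libraries. Jun and Junb lay close in HFD-KO, where the lower Jun library had 24.4 RPKM and the higher Junb library 24.3 RPKM. In HFD-WT, Egr1 at 3.52 and 3.85 RPKM lay within the range of Atf3 at 2.89 and 4.30 RPKM, so their order was not resolved. Gadd45b at 2.70 and 2.59 RPKM and Fos at 2.16 and 2.49 RPKM came next, without overlap. In HFD-KO, Egr1 at 6.11 and 6.69 RPKM lay within the range of Gadd45b at 6.82 and 4.65 RPKM, and Fos at 3.58 and 3.60 RPKM lay within that of Atf3 at 2.68 and 4.54 RPKM. Ier3, at 0.523 to 1.44 RPKM, and Fosb, at 0.140 to 0.437 RPKM, were the lowest in both groups.

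Summed per length, Jun-side RNA far exceeded Fos-side RNA in every library. Jun, Junb and Jund together had 94.6 and 96.8 RPKM in HFD-WT and 114 and 113 RPKM in HFD-KO livers. The Fos genes, with Fosl1 and Fosl2 included, had 4.05 and 4.99 RPKM in HFD-WT and 5.71 and 6.25 RPKM in HFD-KO livers. The ratio of the sums was 23.3 and 19.4 in HFD-WT and 20.1 and 18.1 in HFD-KO, and these ranges overlapped. Jund made up 60.1% and 60.8% of the Jun sum in HFD-WT and 54.7% and 56.8% in HFD-KO.

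**Figure D4:**
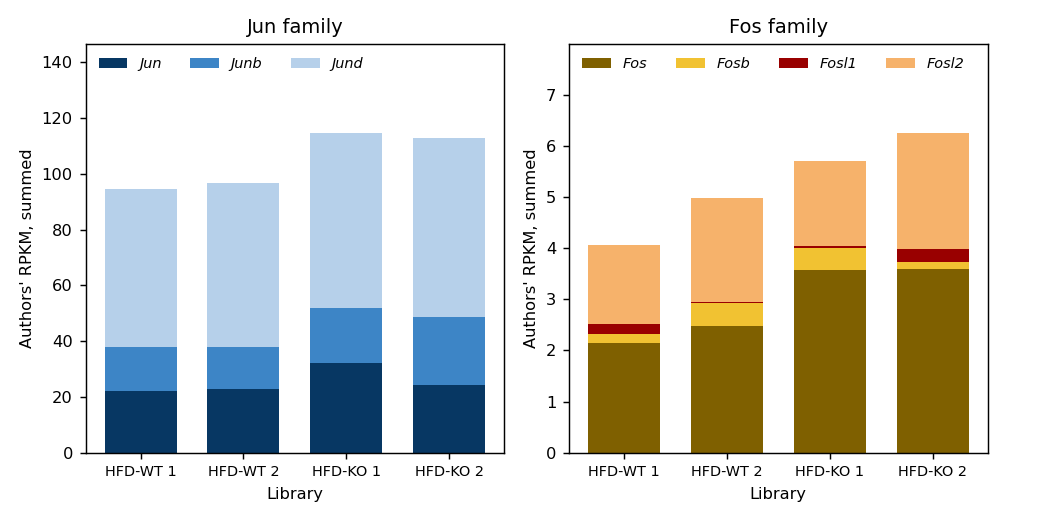
RPKM of the Jun genes (left) and of the Fos genes (right) stacked within each liver library, on axes of different scale that start at 0. Jund is the largest Jun segment in every library, and the Jun sum runs from 94.6 to 114 RPKM beside a Fos sum of 4.05 to 6.25 RPKM.

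The wider immediate-early response was followed in a list of 49 further genes, of which 46 were tested. They are no members, and as a list drawn up with earlier results in view they are not independent evidence. Their median log2 fold change was 0.17, with 31 genes positive and 15 negative. In edgeR's quasi-likelihood test 9 of the 46 genes, or 19.6%, were higher at an unadjusted p under 0.05 and 2, or 4.35%, were lower, while over all genes tested these shares were 4.25% and 4.73%. At an adjusted p under 0.05 edgeR called 0 of the 46, with a smallest adjusted p of 0.231, DESeq2's Wald test called 1, Zfp36, and edgeR with no filter on low counts called 2, Ccn1 and Ccn2. At an unadjusted p under 0.05, 15 were higher and 4 lower without HFD-KO 1, and 6 were lower without HFD-KO 2, where the median was 0.08. The HFD-KO libraries did not always go the same way. Phlda1 had 89.2 and 38.6 CPM in HFD-WT and 31.4 and 102 CPM in HFD-KO livers, with HFD-KO 1 lowest and HFD-KO 2 highest.

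Nr4a1, an orphan nuclear receptor gene, had 4.42 and 4.94 CPM in HFD-WT and 8.51 and 6.45 CPM in HFD-KO livers, and the log2 fold change was 0.68 ± 0.19 (SE). Its relatives Nr4a2 and Nr4a3, both under 1 CPM in every library, had overlapping groups and log2 fold changes of -0.59 and -0.14. Sik1, a salt-inducible kinase gene controlled by cAMP, had 10.8 and 14.2 CPM in HFD-WT and 28.3 and 15.9 CPM in HFD-KO livers, and its log2 fold change of 0.82 was 0.35 without HFD-KO 1 and missed an unadjusted p under 0.05 without HFD-WT 1. Gadd45a, a relative of Gadd45b, had 6.49 and 4.94 CPM in HFD-WT and 7.37 and 10.2 CPM in HFD-KO livers, and its log2 fold change of 0.62 was 0.44 without HFD-WT 2 and 0.36 without HFD-KO 2, no longer at an unadjusted p under 0.05. These 3 genes were higher in both HFD-KO libraries, with adjusted p of 0.363 for Nr4a1, 0.417 for Sik1 and 0.451 for Gadd45a by edgeR. Zfp36, which encodes an mRNA-destabilizing protein, had 142 and 134 CPM in HFD-WT and 174 and 187 CPM in HFD-KO livers, with a log2 fold change of 0.39 ± 0.08 and an adjusted p of 0.235 by edgeR. Csrnp1, a nuclear protein gene, had 14.7 and 13.1 CPM in HFD-WT and 21.5 and 16.9 CPM in HFD-KO livers, and its log2 fold change of 0.47 was 0.28 without HFD-KO 1 and missed an unadjusted p under 0.05 without HFD-WT 2. The matricellular genes went opposite ways. Ccn1 had 13.5 and 13.7 CPM in HFD-WT and 22.8 and 18.4 CPM in HFD-KO livers, with an adjusted p of 0.231 by edgeR, and Ccn2 had 16.5 and 20.1 CPM in HFD-WT and 13.1 and 12.3 CPM in HFD-KO livers, with an adjusted p of 0.262. Errfi1, which restrains EGF receptor signaling and was the most abundant gene of the list, had 1190 and 1209 CPM in HFD-WT and 1303 and 1305 CPM in HFD-KO livers, with a log2 fold change of 0.12 ± 0.09 and an adjusted p of 0.745 by edgeR.

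**Figure D5:**
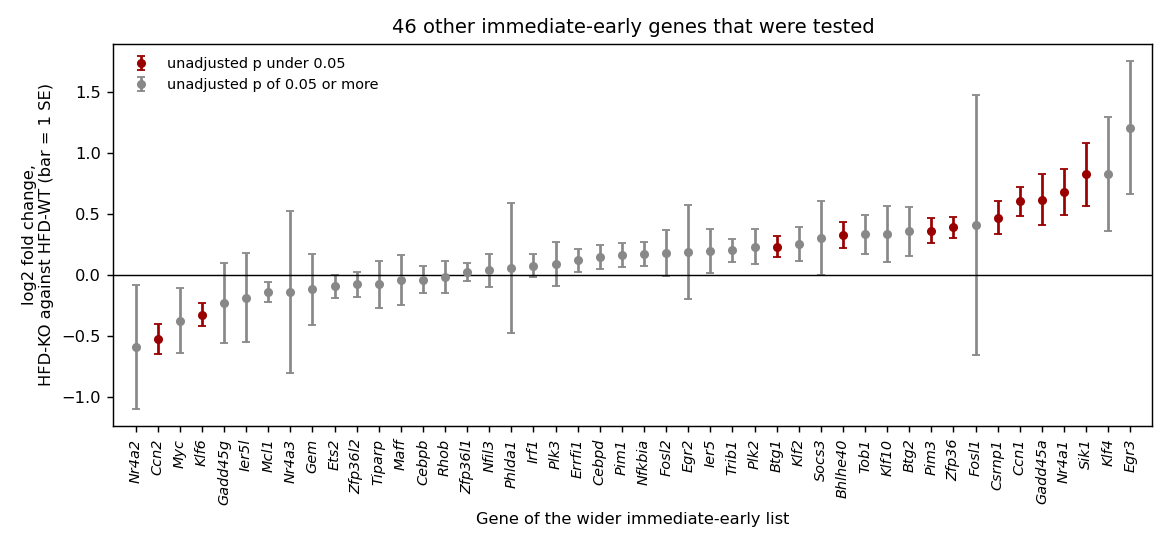
Fitted log2 fold change of HFD-KO over HFD-WT for the tested genes of the wider immediate-early list, sorted, with bars for 1 standard error and red for an unadjusted p under 0.05. Of the 46 genes 31 lie above 0 and 15 below, with Sik1 at 0.82 and Ccn2 at -0.52 among the red points.

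The upstream list held 45 genes, all of them tested, mostly kinases and factors that act ahead of the members. It also held genes whose products act on or beside the proteins of the members, such as Nab2 and Jdp2, and the counts below include them. Their median log2 fold change was 0.03, or -0.01 with the library size alone as scaling. At an unadjusted p under 0.05 by edgeR 6 genes, or 13.3%, were higher and 2, or 4.44%, lower, beside 4.25% and 4.73% of all genes tested. The number higher was 3 without HFD-WT 1, 1 without HFD-WT 2, 1 without HFD-KO 2 and 2 with DESeq2's Wald test, and the number lower was 0 without HFD-WT 2, 5 without HFD-KO 1 and 4 without HFD-KO 2. None of the 45 passed an adjusted p under 0.05 by edgeR, where the smallest adjusted p was 0.329, or by DESeq2's Wald test, but 4 passed without HFD-KO 1 and 1 without HFD-KO 2. Egfr, the EGF receptor gene, had 80.0 and 89.4 CPM in HFD-WT and 104 and 186 CPM in HFD-KO livers, so that its log2 fold change of 0.77 was 0.29 without HFD-KO 2. Egfr missed an unadjusted p under 0.05 without HFD-WT 1 and with DESeq2's Wald test. Met, the hepatocyte growth factor receptor gene, had 42.4 and 44.0 CPM in HFD-WT and 47.2 and 62.2 CPM in HFD-KO livers, and its log2 fold change of 0.34 was 0.13 without HFD-KO 2. Met missed that threshold without HFD-WT 1, HFD-WT 2 or HFD-KO 2. Nab2, which encodes a corepressor that binds EGR1, had 13.3 and 12.1 CPM in HFD-WT and 15.4 and 16.6 CPM in HFD-KO livers, with an adjusted p of 0.416 by edgeR, and it missed the threshold without HFD-WT 2, without HFD-KO 2 and with the Wald test. Jdp2, a leucine-zipper repressor of AP-1, had 2.59 and 4.36 CPM in HFD-WT and 1.56 and 1.63 CPM in HFD-KO livers, and Map3k5, a stress-activated kinase gene, had 43.8 and 53.3 CPM in HFD-WT and 35.2 and 36.7 CPM in HFD-KO livers. Their adjusted p were 0.363 and 0.329 by edgeR, and without HFD-WT 2 their log2 fold changes of -1.12 and -0.43 were -0.70 and -0.28 and passed no threshold. Mapk7, the gene for ERK5, had 2.93 and 2.87 CPM in HFD-WT and 4.10 and 3.89 CPM in HFD-KO livers, and it missed an unadjusted p under 0.05 with any library left out. Map2k2, the most abundant gene of the list over all 4 libraries, had 117 and 126 CPM in HFD-WT and 126 and 136 CPM in HFD-KO livers.

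Negative feedback on MAP kinases was covered by 16 dual-specificity phosphatase, Sprouty and Spred genes, of which 15 were tested. Their median log2 fold change was -0.002. At an unadjusted p under 0.05 by edgeR 1 gene, or 6.67%, was higher and 0 lower, beside 4.25% and 4.73% of all genes tested. The 1 gene was Dusp1, the phosphatase gene that is itself an immediate-early gene, with 41.6 and 50.9 CPM in HFD-WT and 64.2 and 57.1 CPM in HFD-KO livers and an adjusted p of 0.402 by edgeR. The log2 fold change of Dusp1 was 0.39, or 0.25 without HFD-WT 1, where it missed an unadjusted p under 0.05. Dusp6, an ERK phosphatase gene, had 51.5 and 66.0 CPM in HFD-WT and 61.2 and 55.7 CPM in HFD-KO livers. None of the 15 passed an adjusted p under 0.05 by edgeR or by DESeq2's Wald test, and 2 passed without HFD-KO 2. The feedback median was 0.17 without HFD-WT 2.

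The genes most like Egr1 across the 4 libraries were found by the distance between centred log2(CPM + 1) values over 11768 genes. The 5 nearest were 2210418O10Rik at 0.127, Irs2 at 0.175, Nipal1 at 0.207, Susd4 at 0.227 and C8b at 0.232. Irs2, the insulin receptor substrate gene, had 14.3 and 15.2 CPM in HFD-WT and 21.8 and 25.4 CPM in HFD-KO livers. C8b, which encodes a complement subunit, had 65.8 and 85.1 CPM in HFD-WT and 112 and 130 CPM in HFD-KO livers. Of the members, Fos ranked at place 6, Junb at 17, Gadd45b at 140, Jun at 508, Jund at 925 and Ier2 at 1171. Farther off were Atf3 at 8238, Ier3 at 8550 and Fosb at 11074. With 4 libraries in 2 groups, closeness to Egr1 mainly records a similar step between the groups.

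Markers of other liver cells differed between the same libraries. Of 10 Kupffer cell and macrophage markers, 9 had a negative log2 fold change, 6 of them at an unadjusted p under 0.05 by edgeR, and their summed level was 422 and 524 CPM in HFD-WT and 356 and 316 CPM in HFD-KO livers. Without HFD-WT 2 the count of 6 became 3. Vsig4, a complement receptor gene of Kupffer cells, had 19.4 and 21.2 CPM in HFD-WT and 12.9 and 13.3 CPM in HFD-KO livers, with an adjusted p of 0.112 by edgeR. DESeq2's Wald test called 3 of these 10 markers at an adjusted p under 0.05, Cd5l, Mpeg1 and Vsig4, and also Reln and Col1a1 of the stellate, Lyve1 of the endothelial and Spp1 of the cholangiocyte markers. Of 10 stellate cell markers 4 were lower at an unadjusted p under 0.05 by edgeR, namely Reln, Dcn, Col1a1 and Col3a1. Over all genes tested, 4.25% were higher and 4.73% lower at that threshold. The stellate sums were 520 to 577 CPM in HFD-WT and 379 to 468 CPM in HFD-KO. Lrat, Des, Rgs5 and Acta2 of that list had log2 fold changes of -0.09, 0.008, 0.07 and 0.07. Of 10 endothelial markers 1, Lyve1, was lower, with sums of 353 to 400 CPM in HFD-WT and 349 to 358 CPM in HFD-KO. Of 5 tested cholangiocyte markers 1, Spp1, was lower, with 64.3 and 83.9 CPM in HFD-WT and 53.8 and 42.8 CPM in HFD-KO livers. Spp1 made up most of the cholangiocyte sums of 71.6 to 90.6 CPM in HFD-WT and 50.1 to 59.6 CPM in HFD-KO. Krt7, Krt19, Epcam and Sox9 had overlapping groups. The T and NK cell markers summed to 4.11 to 5.45 CPM and 3.18 to 9.61 CPM and the neutrophil markers to 4.14 to 4.32 CPM and 1.94 to 4.69 CPM, with 0 genes at an unadjusted p under 0.05 by edgeR or DESeq2, but 5 of the T and NK cell markers were higher and 2 neutrophil markers lower without HFD-KO 2. All 9 B and plasma cell markers had a positive log2 fold change, 4 of them at an unadjusted p under 0.05, with sums of 17.5 to 20.5 CPM in HFD-WT, 128 CPM in HFD-KO 1 and 25.5 CPM in HFD-KO 2. The count of 4 became 1 without HFD-KO 1, 1 without HFD-WT 2, 8 without HFD-KO 2 and 1 with the Wald test. The hemoglobin and other erythroid markers were positive in 5 of 5 and higher at an unadjusted p under 0.05 in 3, or in 0 without HFD-WT 2 and 1 with the Wald test, with sums of 600 to 757 CPM in HFD-WT and 810 to 1146 CPM in HFD-KO. The hepatocyte markers, with Alb at 52656 CPM or more in every library, summed to 82329 to 82645 CPM in HFD-WT and 83717 to 95750 CPM in HFD-KO, and 1 of 8, Serpina1a, was higher at an unadjusted p under 0.05, or 0 without HFD-WT 1 and 3 without HFD-KO 2. No marker of these lists was at 0 in all libraries. Mitochondrial genes took 6.93% to 7.09% of the counts in HFD-WT and 5.80% to 7.71% in HFD-KO. The part of these cells in the values of the members was not tested.

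Circadian clock genes, whose liver RNA follows the hour of the day, were also listed. The 18 tested had a median log2 fold change of 0.02. At an unadjusted p under 0.05 by edgeR 3, or 16.7%, were higher and 2, or 11.1%, lower, beside 4.25% and 4.73% of all genes tested. Nr1d1, the gene for REV-ERBα, had 82.8 and 73.3 CPM in HFD-WT and 116 and 100 CPM in HFD-KO livers, with an adjusted p of 0.257 by edgeR. Nr1d2 and Bhlhe41 were the other higher genes, and Cry1 and Ciart were lower. Nr1d1 kept an unadjusted p under 0.05 with each library left out, which Nr1d2, Bhlhe41, Cry1 and Ciart did not, and 1 gene was higher and 1 lower without HFD-WT 2. The number lower was 1 without HFD-WT 1 or HFD-KO 1 and 4 without HFD-KO 2. With the library size alone as scaling 1 was higher and 3 lower. No clock gene passed an adjusted p under 0.05 by edgeR with all libraries, but Nr1d1 passed with DESeq2's Wald test, with no filter on low counts, without HFD-KO 1 and without HFD-KO 2. The part of collection time in the values of the members was not tested.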

How the data were processed

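Liver RNA was extracted with TRIzol, and libraries were made with a directional MGI kit and sequenced as paired ends on a DNBSEQ-G400RS. The authors aligned reads with the MGI tool and quantified genes in Partek Genomics Suite with GENCODE annotation. Versions, strand use and the handling of multi-mapped reads are not given in the sources used here. The submitters' processing notes name mm10 and GRCm39, and the gene positions in the table are those of GRCm39. The deposited table gives raw read counts per gene, RPKM, TPM and a CPM-like score that the authors scaled on an adjusted library size. The counts were tested, the deposited RPKM served for levels between genes and for exon lengths, and the deposited TPM and score were not used.

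The counts were fitted with edgeR 4.0.16 in R 4.3.3 (filterByExpr, TMM, quasi-likelihood test, two-sided, Benjamini-Hochberg over 12967 genes, prior degrees of freedom 5.34), and DESeq2 1.42.0 was an alternative. The standard errors given with edgeR's log2 fold changes were derived from its test. Each is the absolute log2 fold change divided by the square root of the quasi-likelihood F statistic. With 2 libraries against 2 an exact permutation p cannot fall below 0.333, so tests rest on the variance shared across genes. Promoters and plots were handled in Python with pandas 2.3.3 and matplotlib 3.10.9. The members and gene lists were chosen with earlier results of these data known. Named genes were all members, from each list those with an unadjusted p under 0.05 (at most 6, by size of log2 fold change) plus its most abundant genes, and the 5 nearest to Egr1. Proteins were not analysed here.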

Additional observations from a re-analysis of the deposited data

How the results depend on the processing

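With the size factors of DESeq2 used in edgeR, with the library size alone as scaling, with no filter on low counts, with the replicate numbers as a block and with DESeq2's Wald test, Egr1 kept a positive log2 fold change, as it did with each library left out (0.77 to 0.92), but its adjusted p was not under 0.05 with the library size alone, without HFD-WT 1 or without HFD-WT 2. Over all genes, 7 were higher and 3 lower at an adjusted p under 0.05. These became 4 higher with the library size alone, 81 and 81 with no filter, 60 and 60 with the Wald test, and 0 to 376 and 0 to 329 with a library left out. At an unadjusted p under 0.05 the 551 higher genes became 345 with the library size alone, and the 551 and 613 became 298 and 373 with the Wald test and 255 to 1095 and 207 to 1078 with a library left out. The replicate differences of the groups showed no shared direction across 12967 genes (r = -0.09). This single correlation cannot settle whether the replicate numbers paired the libraries. With the replicate block 12 genes were higher and 8 lower at an adjusted p under 0.05. At an unadjusted p under 0.05, 3 genes of the upstream list were higher in place of 6. A positive log2 fold change was found for 8 members in place of 9. Fkbp5 and Zbtb16 passed an adjusted p under 0.05 only in this fit and where no filter was used or an HFD-KO library was left out. The upstream list had 2 higher genes with the library size alone, where its median was -0.0113, and 2 with the Wald test. With a library left out, the median of the members ran from 0.38 to 0.52, that of the wider list from 0.0756 to 0.173 with 6 to 15 genes higher and 2 to 6 lower, that of the upstream list from -0.00607 to 0.0504 with 1 to 7 higher and 0 to 5 lower, and that of the feedback list from -0.0889 to 0.170 with 0 to 2 higher and 0 to 1 lower. Ighm, an immunoglobulin gene among the B cell markers, had a log2 fold change of 2.39, which was -0.0667 without HFD-KO 1 and up to 3.24 with another library left out. The causes of these shifts were not tested. With a group cut to 1 library, that library is assumed to vary like the other group. Fosb and Ier3 had only 14 to 48 reads per library, and their HFD-KO replicates still differed by more than counting error.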

Other observations

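Glucocorticoid-responsive genes, of which 14 were tested, had a median log2 fold change of 0.01. Over all genes tested, 4.25% were higher and 4.73% lower at an unadjusted p under 0.05 by edgeR. Of the 14 genes 1, or 7.14%, was higher and 2, or 14.3%, were lower at that threshold. These counts became 1 and 4 without HFD-WT 1, 3 and 1 without HFD-WT 2, 4 and 2 without HFD-KO 1 and 2 and 6 without HFD-KO 2. Igfbp1, an insulin-repressed hepatocyte gene, had 48.3 and 68.8 CPM in HFD-WT and 93.5 and 293 CPM in HFD-KO livers, so that HFD-KO 2 set much of its log2 fold change of 1.72, which was 0.68 without that library. Fkbp5, an immunophilin gene induced by glucocorticoid, had 88.6 and 163 CPM in HFD-WT and 40.1 and 68.5 CPM in HFD-KO livers, and the log2 fold change of -1.22 was -0.70 without HFD-WT 2. Zbtb16 had 28.8 and 77.0 CPM in HFD-WT and 11.2 and 22.9 CPM in HFD-KO livers, and the log2 fold change of -1.63 was -0.75 without HFD-WT 2. Pck1, the gluconeogenic carboxykinase gene of that list, had 2366 and 2537 CPM in HFD-WT and 2719 and 2231 CPM in HFD-KO livers. None of the 14 genes passed an adjusted p under 0.05 by DESeq2's Wald test, or by edgeR with the filter and without the replicate block. Fkbp5 and Zbtb16 passed in edgeR with the replicate block. Fkbp5, Zbtb16 and Igfbp1 passed with no filter on low counts. For Lcn2 and Mt1 the HFD-KO libraries went opposite ways. Lcn2 had 102 and 104 CPM in HFD-WT and 45.3 and 158 CPM in HFD-KO livers. Mt1 had 217 and 177 CPM in HFD-WT and 150 and 268 CPM in HFD-KO livers. Zbtb16 missed an unadjusted p under 0.05 without HFD-WT 2.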
